A study of Mus musculus with 12 samples.

Results

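Rnf128, Abi3bp, St3gal6 and Ces1d were among the genes with the largest differences when SRA was knocked down in 3T3-L1 adipocytes, and they were selected from these arrays for that difference. The values that chose them, those of the knockdown comparison, are therefore given as a description and carry no test. The members are the 12 probe sets annotated to 1 of these 4 symbols alone, of 45101 on the array. Rnf128 had 2 probe sets, Abi3bp 2, St3gal6 5 and Ces1d 3. A probe set is a group of short probes that reads 1 transcript or a few related ones, and no probe set of the array carried 1 of the 4 symbols together with another.

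Expression was measured on Affymetrix mouse genome arrays in 2 mouse cell lines with 3 arrays in each of 4 groups. The ST2 line, from bone marrow stroma, carried a pMSCV retrovirus, either empty (ST2 control) or with the cDNA of human SRA (ST2 SRA), and infected cells were selected with puromycin. The 3T3-L1 preadipocyte line carried pSuperior with a hairpin against mouse SRA (shSRA) or with a control hairpin (shControl, which the sample labels describe as an empty vector). All 4 groups were induced with MDIT, a mixture of troglitazone at 5 µM, insulin at 0.167 µM, dexamethasone at 1 µM and methylisobutylxanthine at 0.5 mM, so the controls too were exposed to a glucocorticoid and a PPARγ ligand. ST2 adipocytes were harvested on day 4 and 3T3-L1 adipocytes on day 8, so that cell line and day cannot be told apart in any comparison between lines. The arrays hold 1 of the study's hairpins, so an effect of this hairpin on other transcripts and an effect of SRA loss cannot be told apart on them. By the paper, the overexpression vector makes no SRAP, a protein read from longer SRA transcripts. It expects the hairpin to lower SRAP along with the RNA, so overexpression and knockdown are not exact opposites. The labels call the replicates biological.

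SRA, the steroid receptor RNA activator, acts as a noncoding RNA coactivator of nuclear receptors, among them PPARγ, the receptor that drives fat cell differentiation. The 4 genes have unrelated products. Rnf128 encodes GRAIL, a membrane-anchored RING ubiquitin ligase best known from T cells, where it helps to keep them unresponsive. Abi3bp encodes an extracellular matrix protein first found as a binding partner of Abi3. St3gal6 encodes a Golgi sialyltransferase that adds sialic acid to terminal galactose, a step in making ligands for selectins. Ces1d, also named Ces3 or triacylglycerol hydrolase, encodes an esterase of the endoplasmic reticulum in liver and adipose tissue that hydrolyses stored triglyceride. In bulk samples, a change in the number of expressing cells and a change in RNA per cell cannot be told apart.

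RefSeq promoter windows, from 250 bases before to 50 bases after a transcript start on build GRCm38.p6, were at hand for Rnf128 and St3gal6, 3 windows in all. They are shown because these genes differed in opposite directions with knockdown and because St3gal6 had 2 starts that differ in base composition. Capitals mark GC boxes, the letters GGGCGG on either strand, so CCGCCC in the printed strand is also a match.
Rnf128, chrX:139610370-139610669, plus strand: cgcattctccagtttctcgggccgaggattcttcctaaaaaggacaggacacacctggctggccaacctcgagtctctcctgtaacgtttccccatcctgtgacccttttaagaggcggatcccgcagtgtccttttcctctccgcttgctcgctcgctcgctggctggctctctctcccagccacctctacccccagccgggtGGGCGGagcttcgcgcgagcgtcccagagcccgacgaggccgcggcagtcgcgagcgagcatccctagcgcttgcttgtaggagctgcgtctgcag
St3gal6, chr16:58523377-58523676, minus strand: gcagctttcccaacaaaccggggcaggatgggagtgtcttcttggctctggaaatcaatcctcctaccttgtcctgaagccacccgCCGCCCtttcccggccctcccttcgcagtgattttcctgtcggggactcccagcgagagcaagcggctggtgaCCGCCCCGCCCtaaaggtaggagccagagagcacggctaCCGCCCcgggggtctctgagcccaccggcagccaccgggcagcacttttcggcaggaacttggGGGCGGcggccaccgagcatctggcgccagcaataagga
St3gal6, chr16:58524204-58524503, minus strand: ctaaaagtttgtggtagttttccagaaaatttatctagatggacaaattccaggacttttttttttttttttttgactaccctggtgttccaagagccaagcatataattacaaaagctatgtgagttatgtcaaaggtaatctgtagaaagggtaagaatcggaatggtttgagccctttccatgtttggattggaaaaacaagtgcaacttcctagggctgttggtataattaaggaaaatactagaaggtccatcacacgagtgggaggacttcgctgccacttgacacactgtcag
The Rnf128 window was 63.0% G and C and held 1 GC box, which began 46 bases before the start (position -46). The first St3gal6 window was 64.7% G and C and held 5, at -164, -91, -86, -52 and 12, with the matches at -91 and -86 sharing a base. The other St3gal6 window was 38.7% G and C and held none. The median over all 32851 windows was 52.7% G and C, and a GC box was in 35.7% of them. Searched on both strands, the PPAR response element (AGGTCA, 1 free base and AGGTCA again), the half-site AGGTCA alone, which every such element also holds, the glucocorticoid response element (AGAACA, 3 free bases and TGTTCT), the C/EBP element TTGCNNAA, the E-box CACGTG and the TATA box TATAAA had no match in the 3 windows. They were in 0.0396%, 16.3%, 0.00913%, 10.8%, 7.15% and 13.6% of all windows. A match describes letters and is not a measured binding site.

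Values are log2 expression values made by robust multi-array average (RMA), in which a difference of 1 is a doubling of signal. Of all probe sets, 19068 had a variance over the 12 arrays above 0.05 and entered the limma fit, and 10 of the 12 member probe sets were among them. Sra1, the gene of SRA, read 11.86, 11.67 and 11.84 in shControl and 9.46, 9.20 and 9.62 in shSRA adipocytes, so every knockdown array was below every control array. With SRA overexpression Sra1 differed by 0.22 (standard error 0.18) and did not pass (adjusted p = 0.484 from limma). Whether this mouse probe set reads the human cDNA was not tested. The paper states that infection with this vector raised SRA RNA many-fold in ST2 cells, with the data not shown. In ST2 control replicate 2, bright probe sets read low, with a median deviation of -0.43 from the other arrays of its group against -0.07 to 0.24 on the other 11 arrays. Adipocyte markers were strong in all groups, with the median of 8 measured genes between 12.85 and 14.21. In ST2 these markers lay higher with SRA by a median of 0.37. Of the 5 that entered the fit, 1 passed, the glucose transporter gene Slc2a4 (log2 fold change 1.08, adjusted p = 0.000176 from limma). An unadjusted p under 0.05 was had by 4, all higher, where 22.2% of all tested probe sets had one. With knockdown the median difference of these markers was 0.05 and 0 passed. Their part in the ST2 differences of Rnf128 and Ces1d, which also lay above 0, was not tested. The medians of the T cell, hepatocyte, endothelial and macrophage lists lay between 5.14 and 6.99 in every group, and only 3 of their 21 measured genes passed the variance filter and were tested, none of them called in either comparison. Of 5 measured preadipocyte and fibroblast markers, 4 of them tested, 2 were lower in ST2 SRA adipocytes and none passed with knockdown. RMA values carry no detection call, so a low value cannot be called absent.

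Rnf128 was lower in every shSRA array than in any shControl array. Probe set 1418318_at read 7.48, 6.86 and 7.12 in shControl and 5.31, 5.49 and 5.79 in shSRA adipocytes. The same-numbered differences were -2.16, -1.37 and -1.33. The groups were more than 1 unit apart at their nearest arrays, and the largest of the 3 differences came from replicate 1, which held both the highest control and the lowest knockdown array. The log2 fold change was -1.62 (standard error 0.18), a 3.08-fold lower signal, and its size ranked 2 among all tested probe sets, after Sra1. Probe set 1449036_at read 6.02, 5.45 and 5.53 against 4.51, 4.52 and 4.43, and its log2 fold change was -1.18 (standard error 0.17), rank 8. Both probe sets had their largest same-numbered difference in replicate 1, -1.51 for 1449036_at against -0.93 and -1.10 in replicates 2 and 3.

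In ST2 adipocytes Rnf128 lay between the 3T3-L1 groups in mean and its difference had the other sign. Probe set 1418318_at read 5.98, 5.79 and 5.81 in ST2 control and 6.20, 6.51 and 6.59 in ST2 SRA adipocytes. All 3 SRA arrays were above all 3 controls, and the same-numbered differences were 0.22, 0.72 and 0.79. The log2 fold change of 0.58 (standard error 0.18, 95% interval 0.19 to 0.96) did not pass the test over all probe sets (adjusted p = 0.0596 from limma, unadjusted p = 0.00526). Probe set 1449036_at read 4.86, 4.65 and 4.86 against 4.99, 5.42 and 5.14, again without overlap, and its log2 fold change of 0.39 (standard error 0.17, 95% interval 0.03 to 0.76) did not pass either (adjusted p = 0.188 from limma). Leaving out the ST2 control array that read low gave 0.54 and 0.33 (adjusted p = 0.0913 and 0.274 from limma). Limma's nested F classification, which judges a probe set more easily in 1 comparison when the other is large, called 1418318_at higher in ST2 SRA, as it called 5.29% of all tested probe sets in 1 direction or the other. That call leans on the knockdown values by which the gene was chosen.

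The probe sets of Rnf128 followed each other closely, with a Pearson correlation of 0.96 over the 12 arrays, 0.88 over the 6 ST2 arrays and 0.97 over the 6 3T3-L1 arrays. They are measurements of the same RNA and not independent evidence. The mean of 1418318_at was 5.53 ± 0.24 (SD, n = 3) in shSRA, 5.86 ± 0.11 (SD, n = 3) in ST2 control, 6.43 ± 0.21 (SD, n = 3) in ST2 SRA and 7.15 ± 0.31 (SD, n = 3) in shControl adipocytes. In this order, from low to high, no neighbours overlapped, but the highest shSRA array and the lowest ST2 control array both read 5.79. The controls of the lines differed by 1.29, less than the difference with knockdown.

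**Figure D1:**
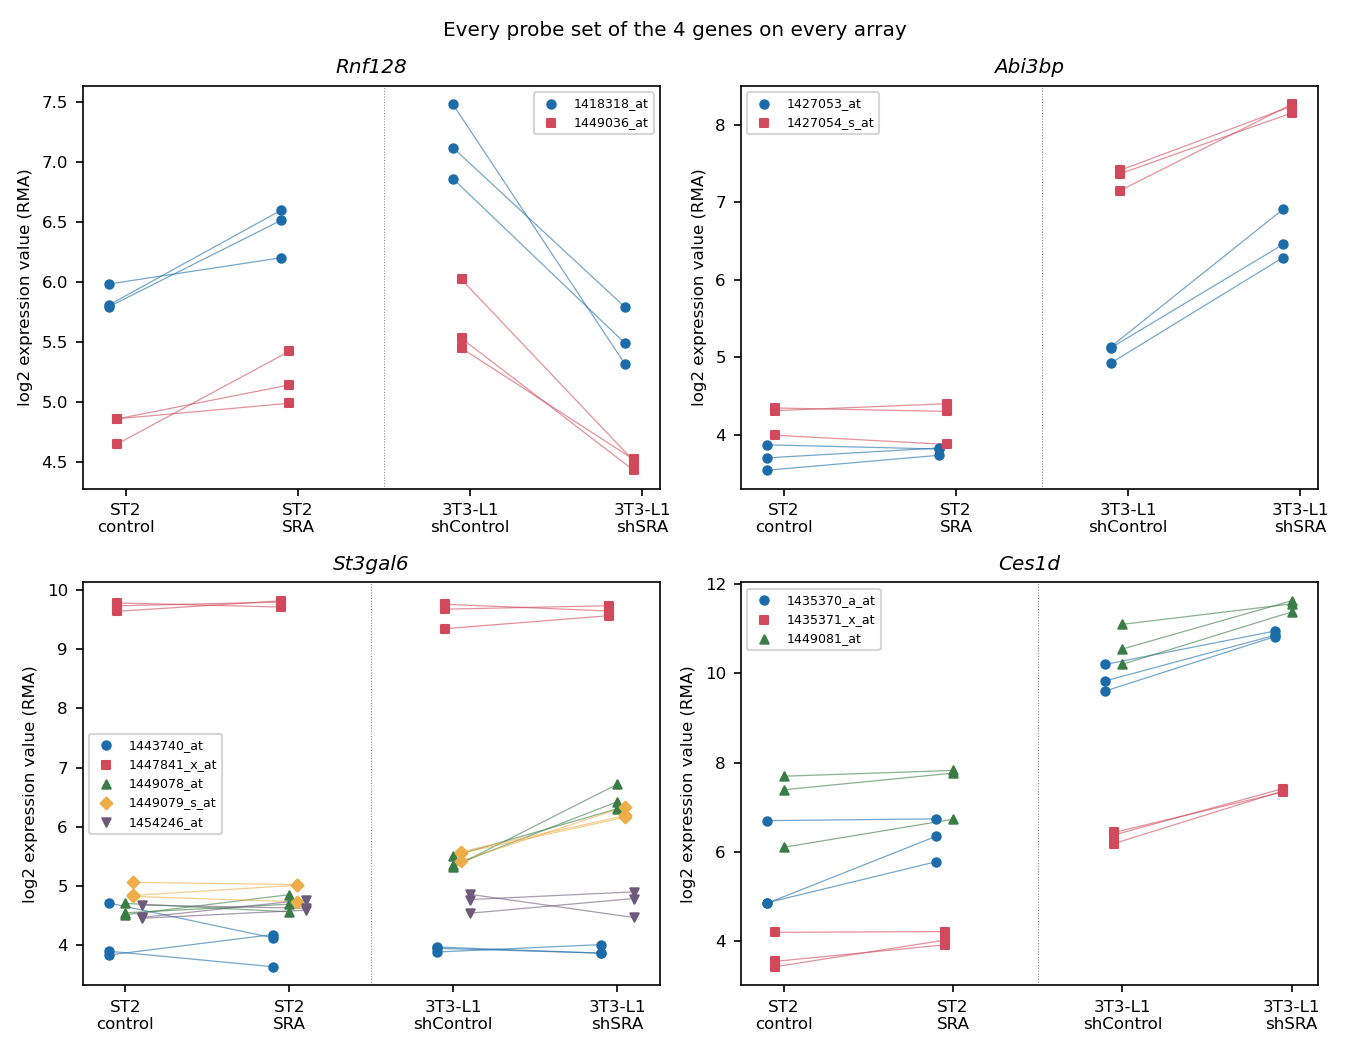
Log2 expression value (RMA) of every probe set of the 4 genes on each of the 12 arrays, with a panel per gene, a symbol per probe set and thin lines joining arrays of the same replicate number. Rnf128 is lower in all shSRA arrays, both Abi3bp probe sets, all Ces1d probe sets and 2 of the 5 St3gal6 probe sets are higher, and the other 3 St3gal6 probe sets stay level.

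Abi3bp was higher in every shSRA array than in any shControl array. Probe set 1427053_at read 5.14, 4.93 and 5.12 in shControl and 6.91, 6.29 and 6.46 in shSRA adipocytes, with same-numbered differences of 1.77, 1.36 and 1.33. All 3 pairs were apart by more than the whole range of either group. The log2 fold change was 1.49 (standard error 0.17), a 2.81-fold higher signal, rank 4 by size and the largest among the probe sets that were higher. Probe set 1427054_s_at, whose suffix marks probes shared among transcripts, read 7.15, 7.36 and 7.41 against 8.26, 8.15 and 8.24, with differences of 1.12, 0.79 and 0.83. Its log2 fold change was 0.91 (standard error 0.17), rank 33. As for Rnf128, replicate 1 had the largest difference in both probe sets.

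With SRA overexpression Abi3bp did not pass the test in either probe set. Probe set 1427053_at read 3.87, 3.54 and 3.70 in ST2 control and 3.82, 3.74 and 3.83 in ST2 SRA adipocytes, and 1427054_s_at read 4.31, 3.99 and 4.35 against 4.40, 3.88 and 4.30. The groups overlapped in both. The log2 fold changes were 0.09 (standard error 0.17, 95% interval -0.27 to 0.45, adjusted p = 0.792 from limma) and -0.02 (standard error 0.17, 95% interval -0.38 to 0.33, adjusted p = 0.947 from limma). The intervals leave out a rise in signal of the size seen with knockdown. In ST2 control adipocytes these probe sets lay at percentiles 1.7 and 9.8 of all probe sets. That is too low for a fall of that size to be judged, and a rise may be understated.

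Abi3bp differed widely between the lines. The mean of 1427054_s_at was 4.19 ± 0.28 (SD, n = 3) in ST2 SRA, 4.22 ± 0.19 (SD, n = 3) in ST2 control, 7.31 ± 0.14 (SD, n = 3) in shControl adipocytes and 8.22 ± 0.06 (SD, n = 3) with shSRA. The ST2 groups overlapped, and the 3T3-L1 groups stood above them without overlap. Between the controls of the lines the difference was 3.09, and by 1427053_at it was 1.36. In ST2 control adipocytes these probe sets lay at percentiles 9.8 and 1.7 of all probe sets, so low that the differences between lines may be understated and their sizes cannot be set against each other. Both probe sets put the ST2 groups lowest and shSRA highest.

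St3gal6 had 5 probe sets, and they did not agree. Probe set 1449078_at read 5.35, 5.51 and 5.32 in shControl and 6.42, 6.30 and 6.72 in shSRA adipocytes, with same-numbered differences of 1.07, 0.80 and 1.40. Every knockdown array was above every control array, and here replicate 3 had the largest difference. The log2 fold change was 1.09 (standard error 0.16), a 2.13-fold higher signal and rank 13. Probe set 1449079_s_at read 5.42, 5.55 and 5.58 against 6.34, 6.16 and 6.19, with differences of 0.91, 0.61 and 0.61, and its log2 fold change was 0.71 (standard error 0.15), rank 87. These probe sets correlated at 0.97 over the 12 arrays and at 0.95 over the 3T3-L1 arrays.

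The other 3 probe sets annotated to St3gal6 did not follow. Probe set 1443740_at read 3.88, 3.97 and 3.95 in shControl and 4.01, 3.86 and 3.87 in shSRA adipocytes, a difference of -0.02 (standard error 0.21). Probe set 1447841_x_at, whose suffix marks probes that can match other transcripts, read 9.34, 9.67 and 9.76 against 9.56, 9.73 and 9.64, and 1454246_at read 4.54, 4.86 and 4.77 against 4.79, 4.47 and 4.90. In all 3 the groups overlapped and the same-numbered differences had both signs. Probe sets 1447841_x_at and 1454246_at did not pass the variance filter and were not tested. Their correlations with 1449078_at over the 12 arrays were -0.26 for 1443740_at, -0.32 for 1447841_x_at and 0.42 for 1454246_at. Which transcripts of the gene each probe set reads is not stated in the files used here.

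In ST2 adipocytes no St3gal6 probe set separated SRA from control arrays. Probe set 1449078_at read 4.55, 4.51 and 4.71 in ST2 control and 4.69, 4.85 and 4.56 in ST2 SRA adipocytes, and the difference was 0.11 (standard error 0.16, 95% interval -0.22 to 0.45, adjusted p = 0.702 from limma). Probe set 1449079_s_at read 4.82, 5.06 and 4.84 against 4.73, 5.02 and 5.01, a difference of 0.02 (standard error 0.15, 95% interval -0.31 to 0.34, adjusted p = 0.964 from limma). The groups overlapped in both, and over these 6 arrays the probe sets did not track each other (correlation of -0.10). Probe set 1443740_at read 3.83, 4.71 and 3.90 against 4.18, 4.12 and 3.64, a difference of -0.17 (standard error 0.21, 95% interval -0.60 to 0.26, adjusted p = 0.657 from limma). Its only high value was on the ST2 control array that read low over bright probe sets, and without it the difference was 0.11. The untested probe sets were level too. Probe set 1447841_x_at read 9.73, 9.64 and 9.78 against 9.79, 9.82 and 9.71, and 1454246_at read 4.47, 4.68 and 4.45 against 4.76, 4.62 and 4.59, with differences of 0.06 and 0.13. The level of 1449078_at in shControl was 0.80 above that in ST2 control adipocytes. In the latter it lay at percentile 17.1 of all probe sets, so a difference in ST2 may be understated.

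Ces1d was higher in every shSRA array than in any shControl array in all 3 probe sets. Probe set 1449081_at read 10.20, 11.10 and 10.54 in shControl and 11.37, 11.56 and 11.63 in shSRA adipocytes, with same-numbered differences of 1.17, 0.46 and 1.08. The control arrays spread over nearly a unit, the knockdown arrays over much less, and replicate 2 held the highest control and so the smallest difference. Its log2 fold change was 0.90 (standard error 0.33), rank 37 by size and 199 by the moderated statistic. Probe set 1435370_a_at read 9.60, 10.20 and 9.83 against 10.82, 10.95 and 10.85, and its log2 fold change was 0.99 (standard error 0.34), rank 21. Probe set 1435371_x_at read 6.19, 6.38 and 6.43 against 7.37, 7.42 and 7.34, with differences of 1.18, 1.04 and 0.91, and its log2 fold change was 1.04 (standard error 0.18), rank 16. The 3 probe sets gave almost the same size of difference, and 1435371_x_at had the narrowest groups.

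In ST2 adipocytes Ces1d varied most among the control arrays. Probe set 1449081_at read 7.70, 7.39 and 6.10 in ST2 control and 7.83, 7.76 and 6.73 in ST2 SRA adipocytes, 1435370_a_at read 6.70, 4.85 and 4.86 against 6.74, 6.35 and 5.78, and 1435371_x_at read 4.20, 3.43 and 3.55 against 4.21, 4.02 and 3.92. The groups overlapped in each, while all 9 same-numbered differences were above 0, though in ST2 the check of pairing was mixed. They were 0.13, 0.37 and 0.63 for 1449081_at, 0.04, 1.5 and 0.92 for 1435370_a_at and 0.02, 0.60 and 0.37 for 1435371_x_at, and replicate 1 had the smallest in each. The log2 fold changes were 0.38 (95% interval -0.31 to 1.06), 0.82 (0.10 to 1.54) and 0.33 (-0.06 to 0.71), with adjusted p of 0.521, 0.162 and 0.307 from limma, so none passed. The interval of 1449081_at held both 0 and the size seen with knockdown, that of 1435370_a_at held the knockdown size and not 0, and that of 1435371_x_at held 0 and not the knockdown size. These intervals use a spread pooled over both lines, and in each probe set the ST2 groups spread more than the 3T3-L1 groups. For 1435370_a_at the SDs were 1.07 and 0.48 in ST2 control and ST2 SRA against 0.30 and 0.07 in shControl and shSRA. The intervals may therefore be too narrow for ST2. Without ST2 control replicate 2 the differences were 0.54, 0.51 and 0.18. Without ST2 control replicate 1 they were called for 1435370_a_at (1.44, adjusted p = 0.000789 from limma) and 1435371_x_at (0.56, adjusted p = 0.0376 from limma), and without ST2 control replicate 3 that of 1449081_at was -0.10.

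Ces1d differed widely between the lines in all 3 probe sets. The mean of 1449081_at was 7.06 ± 0.85 (SD, n = 3) in ST2 control and 7.44 ± 0.62 (SD, n = 3) in ST2 SRA, then 10.62 ± 0.45 (SD, n = 3) in shControl adipocytes and 11.52 ± 0.13 (SD, n = 3) with shSRA. All 6 3T3-L1 arrays were above all 6 ST2 arrays. Between the controls the difference was 3.55 by 1449081_at, 4.41 by 1435370_a_at and 2.61 by 1435371_x_at, the last of which lay at percentile 1.9 of all probe sets in ST2 control adipocytes, so that its difference may be understated. The esterase genes of the Ces1 cluster are close copies, the suffix of 1435371_x_at marks probes that can match other transcripts, so paralogs may enter these values. Ces1f, which was likewise higher in 3T3-L1, had means of 6.0 in ST2 control and 11.12 in shControl and differed by 0.14 with knockdown (adjusted p = 1.00 from limma), named here after its values were seen.

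**Figure D2:**
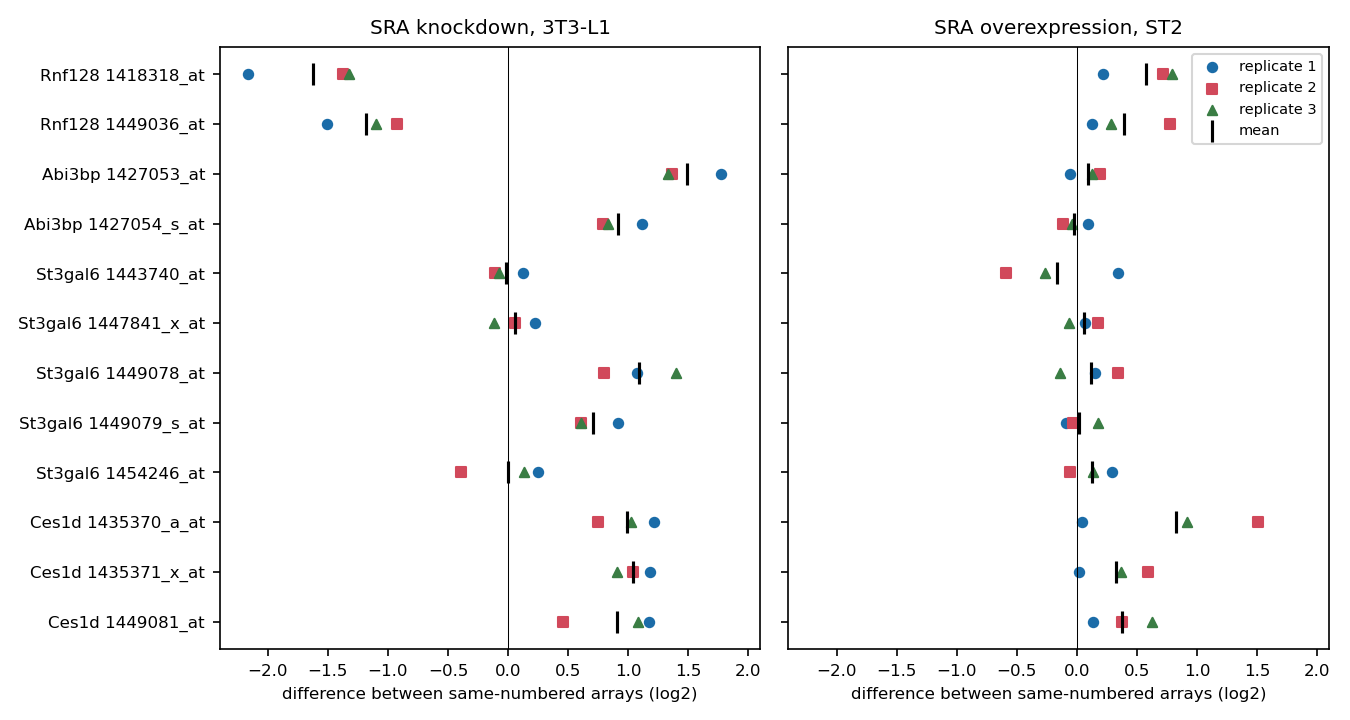
Difference between arrays of the same replicate number (log2), SRA knockdown minus control in 3T3-L1 on the left and SRA overexpression minus control in ST2 on the right, for each of the 12 probe sets, with a symbol per replicate and a bar at the mean. In 3T3-L1, 9 probe sets have all 3 differences on 1 side of 0, and in ST2 it is 5, those of Rnf128 and Ces1d.

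Set beside each other, the comparisons had the same sign for Ces1d and opposite signs for Rnf128. None of the 10 tested member probe sets passed in ST2 by limma's moderated test, where 7.98% of all tested probe sets did (2.33% higher and 5.65% lower), and 3 had an unadjusted p under 0.05, where 22.2% did. Without overlap between ST2 groups were 2 of the 10, both of Rnf128, against 24.2% of all tested, and 5 had all 3 same-numbered differences of 1 sign, against 41.8%. These shares are near or below the background and are no result about the 4 genes. In 3T3-L1, where the genes were chosen, 9 of the 10 had groups without overlap and all differences of 1 sign, beside 10.2% and 34.9% of all tested, and 0.0734% of all tested passed the moderated test. Across all tested probe sets the median log2 fold change was 0.07 in ST2 and 0.02 in 3T3-L1.

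**Figure D3:**
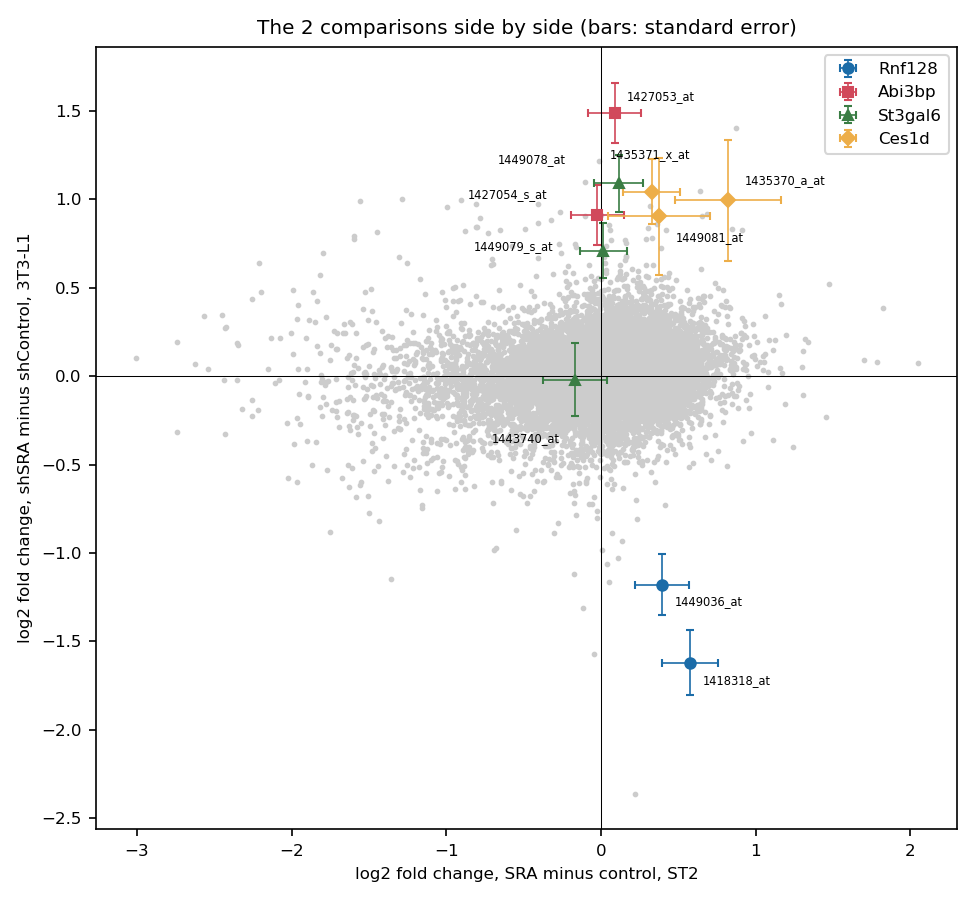
Log2 fold change with SRA overexpression in ST2 (horizontal) against that with SRA knockdown in 3T3-L1 (vertical) for the 19068 tested probe sets (grey) and the 10 tested probe sets of the 4 genes (coloured, bars are standard errors). Rnf128 lies at the lower right, Abi3bp and 2 St3gal6 probe sets at the top near 0 in ST2, Ces1d at the upper right, and St3gal6 1443740_at near the origin.

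With knockdown no tested relative of the 4 genes passed the limma test, each read by its probe set with the highest mean. By that rule St3gal6 itself would be read by 1447841_x_at, which differed by 0.05 with knockdown and did not pass the variance filter. A difference in another probe set of a relative would likewise be missed. Of all tested probe sets 0.0734% passed with knockdown, so lists of this size could hold few calls or none. Relatives that did not pass the variance filter were not tested. Of the membrane RING ubiquitin ligases with a protease-associated domain, the family of Rnf128, all 10 were measured and 4 passed the variance filter. None passed the limma test in ST2 or in 3T3-L1. In both, 0 had an unadjusted p under 0.05, where 22.2% and 2.8% of all tested probe sets had one. Their median differences were 0.11 in ST2 and -0.02 in 3T3-L1. Rnf149 was the highest of them, at 11.53 in ST2 control and 11.69 in shControl. Over all 18829 named genes the medians were 0.06 and -0.01.

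Of 14 measured genes of the Abi family and matrix glycoproteins, listed around Abi3bp, 2 were lower in ST2 SRA adipocytes and none passed with knockdown. The matricellular protein gene Thbs2 had a log2 fold change of -1.06 (adjusted p = 0.00128 from limma) and Fbln2, which encodes the elastic fibre protein fibulin 2, of -1.06 (adjusted p = 0.000266 from limma). Of these 14 genes 7 passed the variance filter and were tested, and with knockdown 4 of them had an unadjusted p under 0.05, all lower, where 2.8% of all tested probe sets had one. Abi3 itself, added for its name as the partner of Abi3bp, did not pass the variance filter and read 6.95 in shControl and 6.91 in shSRA adipocytes. The median differences were -0.21 in ST2 and -0.07 in 3T3-L1, and the fibronectin gene Fn1 was the highest of the list, with 13.87 in ST2 control and 12.24 in shControl.

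All 23 genes of sialic acid transfer and supply listed around St3gal6 were measured, and 10 passed the filter. St6galnac4, a sialyltransferase acting on O-glycans, was lower in ST2 SRA adipocytes (log2 fold change -0.86, adjusted p = 0.00771 from limma), and none passed with knockdown. An unadjusted p under 0.05 was had in ST2 by 1 that was higher and 3 that were lower, where 22.2% of all tested probe sets had one. With knockdown it was had by 0, where 2.8% had one. The medians were 0.03 in ST2 and -0.01 in 3T3-L1. Cmas, which activates sialic acid for transfer, was the highest, at 10.44 in ST2 control and 10.67 in shControl.

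Of the carboxylesterases and neutral lipid hydrolases around Ces1d, 18 of 24 were measured and 7 passed the filter. None passed the limma test in ST2 or in 3T3-L1. An unadjusted p under 0.05 was had by 3 in ST2, all higher, where 22.2% of all tested probe sets had one. With knockdown it was had by 0, where 2.8% had one. The median differences were 0.07 in ST2 and 0.05 in 3T3-L1. Pnpla2, the adipose triglyceride lipase, was the highest, at 13.76 in ST2 control and 14.14 in shControl. With knockdown no measured gene of this list differed by more than 0.27 in either direction, the value of Ces2g, named after its value was seen.

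**Figure D4:**
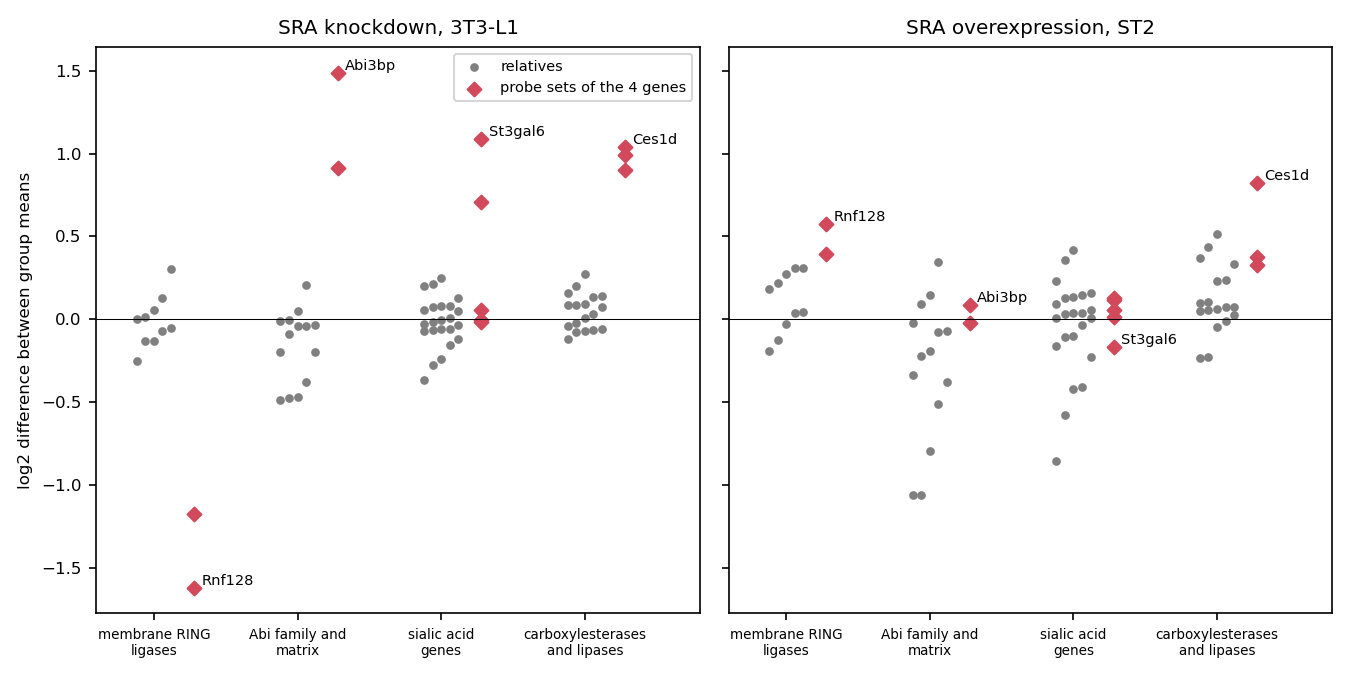
Difference between group means (log2) of the relatives listed around each gene (grey points, 1 per gene) and of the probe sets of the 4 genes (red diamonds), with SRA knockdown in 3T3-L1 on the left and SRA overexpression in ST2 on the right. With knockdown the relatives lie between -0.49 and 0.30. The 4 genes were chosen for their difference in this comparison, and 9 of their probe sets lie at -1.18 or below or at 0.71 or above. The remaining St3gal6 probe sets lie near 0, among the relatives.

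Abi3bp and St3gal6, both higher with knockdown, lie on mouse chromosome 16 with 13 protein-coding genes between them in RefSeq. Of these, 11 were on the array and 8 were tested. None passed with knockdown, where 0.0734% of all tested probe sets did. Their differences ran from -0.45 for Tmem45a to 0.38 for Tomm70a, both named as the extremes after their values were seen, with a median of -0.01. In ST2, 2 of the 8 tested genes were called lower in SRA adipocytes, where 5.65% of all tested probe sets were. They were the collagen gene Col8a1 (log2 fold change -1.64, adjusted p = 1.33e-05 from limma) and Filip1l (-0.97, adjusted p = 0.0278 from limma), both chosen after their values were seen.

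Likeness to other genes was measured by Pearson's correlation over the 12 arrays, which fall into 2 lines and 4 groups, so that a high value mostly repeats those groups. Each gene stood for itself by its probe set with the highest mean. The genes most like Rnf128 were Caps2 (0.86), Sra1 (0.84) and Necap1 (0.80), and once each line's mean was subtracted they were Sra1 (0.94), Spatc1 (0.93) and Egfl8 (0.90). Both Rnf128 and Sra1 ranked at the top of the knockdown comparison that chose Rnf128, so their likeness is not a separate finding. For Abi3bp they were Chrdl1, Ccdc80 and Pdp2 (each 0.99), and within lines Chrdl1 (0.85), Gpatch4 (0.83) and Sinhcaf (0.82). For Ces1d they were Thrsp (0.99), Fzd4 (0.98) and Slc25a4 (0.98), and within lines Kank1 (0.87), Thrsp (0.87) and Celf2 (0.84). Thrsp encodes Spot 14, a protein of fatty acid synthesis. For St3gal6 the highest probe set was the level 1447841_x_at, closest to Ptov1 (0.90), Pitpnm2os1 (0.85) and Cd320 (0.85), and within lines to Cd320 (0.89), ND5 (0.88) and Ensa (0.88). Probe set 1449078_at, taken in addition after the values were seen, was closest to Siglec1, Oplah and Gstm1 (each 0.95), and within lines to Rgs3 (0.91), Trpv1 (0.89) and Siglec1 (0.87). Siglec1 encodes a sialic acid receptor of macrophages.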

How the data were processed

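The deposited values are log2 expression values that the authors made from 12 Affymetrix arrays by RMA, which corrects background, normalizes arrays to one distribution and summarizes probes, with 1 value per probe set and array. The versions of the software behind it: not given in the sources used here. From these values on, R 4.3.3 and limma 3.58.1 were used. Probe sets with a variance above 0.05 were kept, as the study's methods state, and 1 linear model of 4 groups was fitted to all 12 arrays with equal weights, so that arrays of one line enter the spread used in the other. Moderated tests of each comparison were adjusted by Benjamini-Hochberg over all 19068 tested probe sets at 0.05. Genes were named from the platform annotation: 34958 probe sets had 1 symbol, 932 several and 9211 none. The named genes are the 4 members, Sra1, called genes and the highest gene of each list, and the 3 most alike by correlation. Abi3, Ces1f, Ces2g and genes between Abi3bp and St3gal6 were named in addition. The members and lists were chosen with earlier results of these data known. The number of arrays limits the precision. The ST2 comparison was tested on simulated data with independent noise and changes added to the ST2 SRA group alone. That simulation held no pairing, no difference between lines, no low-reading array and no knockdown change.

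Replicate numbers are shared among groups. In 3T3-L1 same-numbered arrays deviated together from their group means (correlations of 0.59, 0.59 and 0.38, against at most 0.04 for other numbers), so the data pair them. In ST2 the correlations were 0.04, 0.27 and 0.53, against -0.44 to 0.21 for other numbers. The check was mixed there, since replicates 2 and 3 lay above every other number and replicate 1 did not. With the pairing as a block in both lines, 101 probe sets passed with knockdown, and with it in 3T3-L1 alone 20, against 14 without. Alternatives covered the filter, the arrays in the fit, array weights, intensity trend, normalization, centring, the block, multiple testing and each array left out.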

Additional observations from a re-analysis of the deposited data

Results flagged for a closer look

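The differences of Rnf128 had opposite signs in the lines, though in ST2 neither probe set passed the test (adjusted p = 0.0596 and 0.188 from limma). For probe set 1418318_at every same-numbered difference was above 0 in ST2 adipocytes with SRA overexpression and below 0 in 3T3-L1 adipocytes with SRA knockdown, and the log2 fold changes were 2.20 apart. For 1449036_at the same held and they were 1.57 apart. For both probe sets the groups did not overlap in either line. Of all tested probe sets, 24.2% had groups without overlap in ST2 and 10.2% in 3T3-L1. All 3 same-numbered differences had 1 sign for 41.8% in ST2 and 34.9% in 3T3-L1. The difference between the lines was not tested, since the 3T3-L1 values chose the gene.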

How the results depend on the processing

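No member probe set was called in ST2 in the main fit, so none of their calls could be reversed. With 1 array left out the sign changed for some uncalled probe sets, among them Abi3bp 1427054_s_at and Ces1d 1449081_at. The ST2 count of 1522 probe sets was 994 with only the 6 arrays of the line, 3938 with array weights, 2549 after a second quantile normalization, 2751 with arrays centred on bright probe sets, 3023 with the replicate block, 1008 by the nested F classification and 749 to 2259 with 1 array left out. Lowest was the fit without ST2 SRA replicate 2, and without ST2 SRA replicate 1 it was 993. The knockdown count of 14 was 6 without the filter, 8 with a variance above 0.1, 4 with only the 6 arrays, 60 with array weights, 5 after the second quantile normalization, 6 with bright centring, 101 with the replicate block, 90 by the nested F classification, 64 with both comparisons adjusted together and 5 to 17 with 1 array left out. For Rnf128 1418318_at in ST2 the difference passed with array weights (0.55, adjusted p = 0.0144 from limma), with the replicate block (0.58, adjusted p = 0.0180) and by the nested F classification (0.58), and with 1 array left out it was 0.50 to 0.69, passing only without 3T3-L1 shControl replicate 1 (adjusted p = 0.0452, range 0.0452 to 0.217). Abi3bp 1427054_s_at in ST2 was -0.14 to 0.13 with 1 array left out. Ces1d 1449081_at was 1.09 with array weights (adjusted p = 0.0240 from limma) and -0.10 to 0.73 with 1 array left out. Ces1d 1435370_a_at passed with the replicate block (0.82, adjusted p = 0.00220), with array weights (1.15, adjusted p = 0.0154) and without ST2 control replicate 1 (1.44, adjusted p = 0.000789), and 1435371_x_at with array weights (0.41, adjusted p = 0.0474) and without that array (0.56, adjusted p = 0.0376). With the block 15.9% of all tested probe sets passed in ST2. The block changed no other member call in ST2. Causes were not tested. RMA values hold no signal over background, so low levels limit what can be seen.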
